A study of Neurospora crassa OR74A with 13 samples.

Results

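The 5 genes described here encode the intracellular enzymes that carry pentose sugars into central metabolism in Neurospora crassa, a filamentous fungus that grows on plant cell walls. They are xylose reductase (NCU08384, symbol xr), xylitol dehydrogenase (NCU00891), xylulokinase (NCU11353, symbol xyk-1), the arabinitol dehydrogenase step (NCU00643) and the xylulose reductase step (NCU09041). They were chosen by function, as a fixed list of identifiers, though with earlier results of these data known. All 5 occurred among the 9733 genes present in every one of 13 libraries. Levels are given as FPKM, fragment counts divided by transcript length and by the size of the library, and are thus per length.

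Mycelium of all groups was pregrown for 16 h in sucrose medium, washed and kept for 4 h in fresh medium with a given carbon source before polyadenylated RNA was sequenced. The deletion mutant called TBGK, which lacks the beta-glucosidase genes NCU04952, NCU00130 and NCU08755, was measured on cellobiose, on Avicel and on sucrose with 1 library each. The wild type reference strain (WT, FGSC 2489) was measured on cellobiose with 1 library, and on Avicel, on no carbon source and on sucrose with 3 numbered libraries each, for which the series text speaks of biological triplicates. Avicel (PH101) is a microcrystalline cellulose, and cellobiose is the glucose disaccharide released from it. RNA came from whole mycelium, so fewer expressing cells and less RNA per cell cannot be told apart in any of the levels below.

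D-xylose, the backbone sugar of xylan, is reduced to xylitol by xylose reductase, oxidised to D-xylulose by xylitol dehydrogenase and phosphorylated by xylulokinase, whose product enters the pentose phosphate pathway. L-arabinose, a common side chain sugar, is first reduced to L-arabinitol, which arabinitol dehydrogenase oxidises to L-xylulose, and L-xylulose reductase turns that into xylitol, where the routes meet. In filamentous fungi the genes of the xylose route are known to respond to pentoses through a xylanase regulator, which in Neurospora crassa is XLR-1. They are also known to be held low by preferred sugars.

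The libraries differed in depth. Aligned bases were 472 to 5640.4 megabases in the 9 triplicate libraries, an 11.96-fold range. No coverage is listed for the other 4 libraries, so their depth cannot be given. The first Avicel and the first sucrose replicate were the shallowest. In WT on Avicel, replicate 1 also stood apart for 4 of the 5 genes: the mean of replicates 2 and 3 was 4.34 times its level for xylose reductase, 4.86 times for xylitol dehydrogenase, 3.81 times for xylulokinase and 4.61 times for the xylulose reductase step, but 1.47 times for the arabinitol step. Over all 8759 genes tested the median of a like factor, taken from means of log2(FPKM + 1) and not of FPKM, was 1.15. By that factor 13.9% of genes were at 2 or more. The 3 genes deleted in TBGK had 0 to 9.21 FPKM in the mutant libraries, against 189 to 50743 FPKM in WT on Avicel. NCU04952 was also near 0 in WT on sucrose (0, 0.983 and 0 FPKM) and on cellobiose (1.36 FPKM). For that gene only the Avicel libraries show the deletion. The labels mark the 9 triplicate libraries as taken over from an earlier deposit, and their table format differs from that of the 4 single ones, so a deposit difference and a strain or carbon source difference cannot be told apart where a single library is set against a triplicate.

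**Figure D1:**
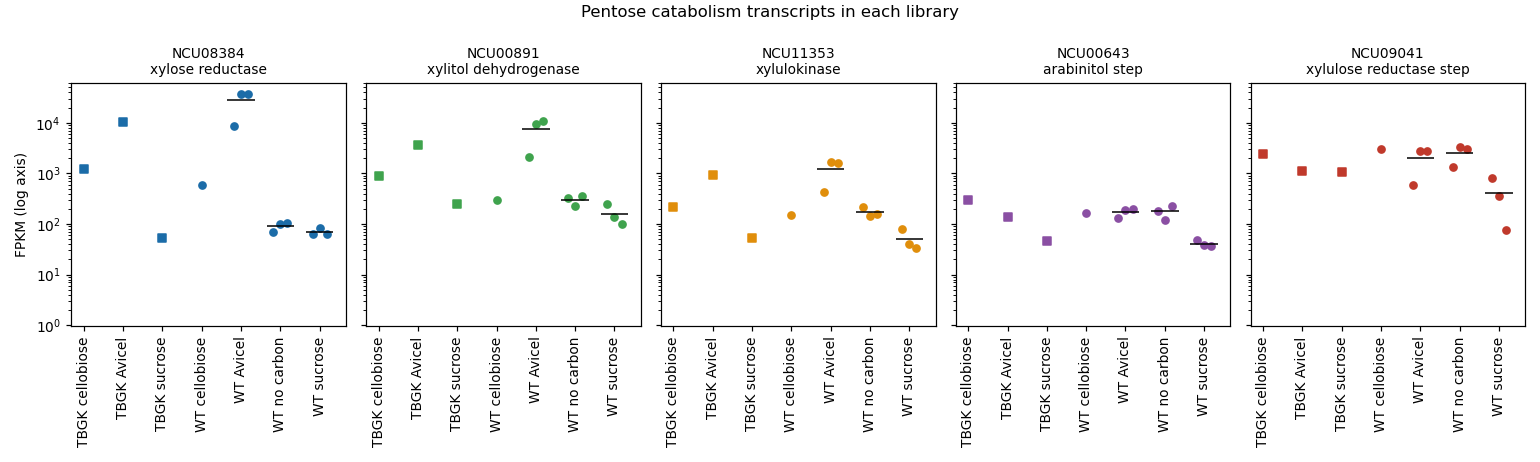
FPKM (log axis) of each of the 5 genes in each library, by strain and carbon source; circles are WT libraries, squares TBGK libraries and black lines the means of triplicates. The 3 genes of the xylose route stand highest on Avicel in both strains, up to 37166 FPKM for NCU08384. For NCU00643 and NCU09041 the WT libraries on Avicel and on no carbon overlap.

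Xylose reductase, the entry enzyme of the route, differed most of the 5 on Avicel against no carbon and against sucrose in WT, and least on no carbon against sucrose. NCU08384 (supercont10.1, 5518646 to 5520522, positions as deposited, with the build not given in the sources used here) had 8539.9, 36991 and 37166 FPKM in WT on Avicel, against 70.6, 99.6 and 106 FPKM on no carbon and 63.0, 83.2 and 64.4 FPKM on sucrose. All 3 Avicel libraries lay far above every no carbon and sucrose library, and the no carbon and sucrose ranges overlapped. Its transcript ranked 83, 9 and 11 among 9733 genes in the Avicel libraries. On no carbon and sucrose it lay near the middle, above 44.1% to 53.5% of genes.

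On Avicel against no carbon NCU08384 rose by 7.96 (SE 0.51) on the scale of log2(FPKM + 1), which is 248-fold (limma over the 9 WT triplicate libraries, adjusted p = 4.15e-05). Without Avicel replicate 1 the difference was 8.66. On Avicel against sucrose it rose by 8.33 (SE 0.51, limma adjusted p = 3.24e-06), or 9.04 without Avicel replicate 1. Its change in no carbon against sucrose was 0.38, with a 95% interval of -0.80 to 1.55 (limma adjusted p = 0.540). The median difference of all genes tested was -0.16, 0.26 and 0.39 in these comparisons, in the same order.

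Xylitol dehydrogenase, which makes D-xylulose, followed at a lower level. NCU00891 (supercont10.1, 6853504 to 6854979) had 2086, 9641 and 10645 FPKM in WT on Avicel, against 319, 230.4 and 355 FPKM on no carbon and 244, 139 and 99.8 FPKM on sucrose. The Avicel libraries were again all above the others, while the lowest no carbon library fell inside the sucrose range. It rose by 4.33 (SE 0.60, limma adjusted p = 0.00341) on Avicel against no carbon, 20.1-fold, and by 5.31 (SE 0.60, limma adjusted p = 9.57e-05) on Avicel against sucrose. Without Avicel replicate 1 these were 5.09 and 6.07.

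In no carbon against sucrose NCU00891 did not pass (0.98, 95% interval -0.39 to 2.34, limma adjusted p = 0.182). It passed without both shallow libraries (1.33, adjusted p = 0.00165), without Avicel replicate 1 alone (0.98, adjusted p = 0.0273) and with every library scaled to the same total (1.81, adjusted p = 0.0361). The neighbouring gene NCU00890 begins 92 bases from NCU00891, and the protocol names no step that marks the strand. NCU00890 averaged 1439 ± 162 FPKM on Avicel and 64.3 ± 2.0 FPKM on no carbon (SD, n = 3 each), and it rose by 4.46 (SE 0.16, limma adjusted p = 9.65e-07). Whether reads are shared between the pair was not tested.

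Xylulokinase, which commits xylulose to the pentose phosphate pathway, showed the smallest difference of the xylose route on Avicel against no carbon and against sucrose in WT, and the largest of the route on no carbon against sucrose. NCU11353 (supercont10.3, 1247481 to 1249619) had 428, 1668 and 1594 FPKM in WT on Avicel, against 215, 144 and 158 FPKM on no carbon and 80.2, 40.4 and 33.9 FPKM on sucrose. The 3 groups did not overlap: Avicel was highest, no carbon between and sucrose lowest. It rose by 2.61 (SE 0.53, limma adjusted p = 0.0237) on Avicel against no carbon, by 4.42 (SE 0.53, adjusted p = 0.000136) on Avicel against sucrose, and by 1.80 (SE 0.53, adjusted p = 0.0156) on no carbon against sucrose.

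The first of these calls for NCU11353 was not firm. Its adjusted p was 0.0868 without Avicel replicate 2, 0.0917 without Avicel replicate 3, and 0.0614, 0.0751 and 0.0926 without no carbon replicates 1, 2 and 3, but 0.00177 without Avicel replicate 1, where the difference was 3.26. With the replicate number as a block it was 0.0719, with no filter on low values 0.0537 and with libraries scaled to the same total 0.0682. The call against sucrose on no carbon was lost without no carbon replicate 1 (adjusted p = 0.0545) or sucrose replicate 3 (0.0562).

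The arabinitol dehydrogenase step behaved differently. NCU00643 (supercont10.1, 7723693 to 7725193) had 131, 191 and 195 FPKM in WT on Avicel, against 182, 122 and 226 FPKM on no carbon and 47.2, 38.4 and 37.2 FPKM on sucrose. Avicel and no carbon overlapped fully, and both lay above all sucrose libraries. The difference between Avicel and no carbon was -0.01 with a 95% interval of -0.61 to 0.59 (limma adjusted p = 0.987). Against sucrose it rose by 2.03 (SE 0.26, limma adjusted p = 0.000204) on Avicel and by 2.05 (SE 0.26, limma adjusted p = 0.000184) on no carbon, both about 4.1-fold.

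The xylulose reductase step was the most abundant member in every library outside Avicel but WT sucrose replicate 3, where xylitol dehydrogenase was. NCU09041 (supercont10.7, 3828574 to 3829842) had 596, 2777 and 2718 FPKM in WT on Avicel, against 1365, 3294 and 2996 FPKM on no carbon and 807, 353 and 76.4 FPKM on sucrose. Its sucrose replicates spread more widely than those of any other member, and the lowest Avicel library lay inside the sucrose range. The difference between Avicel and no carbon did not pass (-0.53, 95% interval -2.55 to 1.50, limma adjusted p = 0.800) and was 0.21 without Avicel replicate 1. On no carbon against sucrose it rose by 3.08 (SE 0.89, limma adjusted p = 0.0143), a call that held with any 1 of the 9 libraries left out (adjusted p 0.00603 to 0.0483).

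On Avicel against sucrose NCU09041 was called higher (2.56, SE 0.89, limma adjusted p = 0.0355), although these groups overlapped. The adjusted p was 0.110 without Avicel replicate 2, 0.106 without Avicel replicate 3, 0.0504 and 0.0523 without no carbon replicates 2 and 3, 0.0627 without sucrose replicate 2 and 0.106 without sucrose replicate 3, which gave a difference of 1.63. It was also lost with the replicate block (0.0562) and with no filter (0.0688). Without both shallow libraries the difference was 4.05 (adjusted p = 0.00245).

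**Figure D2:**
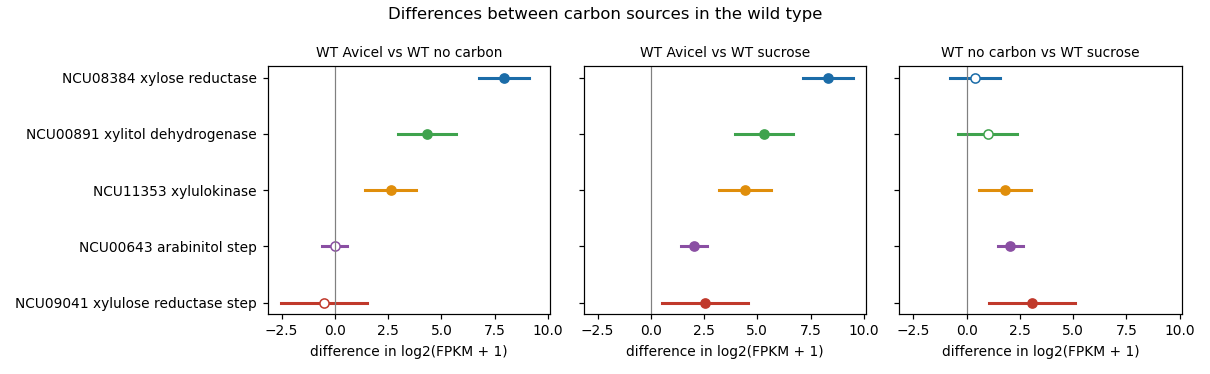
Difference in log2(FPKM + 1) for each gene in the 3 comparisons among WT triplicates, with 95% intervals from limma; filled points have an adjusted p under 0.05. The interval of NCU08384 on Avicel against no carbon begins at 6.78, whereas those of NCU00643 and NCU09041 include 0.

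Counted over the list, 3 of 5 genes rose and 0 fell on Avicel against no carbon, where 3.9% of all tested genes were called higher, 1.72% lower and 5.63% in either direction. The same 3 members had Avicel libraries wholly above the no carbon libraries, as did 10.7% of all tested genes. On Avicel against sucrose 5 of 5 rose, where 33.9% of all genes were called higher, 24.5% lower and 58.3% in either direction, and 4 of 5 did not overlap, against 35.6%. On no carbon against sucrose 3 of 5 rose, where 40.2% of all genes were called higher, 24.1% lower and 64.3% in either direction, and the same 3 did not overlap, against 45.3%. Against sucrose, calls were thus common among all genes, and the member counts say little on their own. The 3 comparisons share their libraries and are not independent of each other. The median difference of the 5 members was 2.61, 4.42 and 1.80 in the 3 comparisons.

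The share of rises among all calls depended on the scaling. It was 69.4% on Avicel against no carbon and 53.4% with libraries scaled to the same total. On Avicel against sucrose it was 58.0% and 75.4%, and on no carbon against sucrose 62.5% and 82.6%, or 51.7% after quantile normalization. That scaling to the same total moved the median of all genes to -0.43, 0.77 and 1.19. Ratios between genes of the same library are free of any scaling by 1 factor per library, such as the same total, but quantile normalization changes them.

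Within WT libraries, xylose reductase was 4.09, 3.84 and 3.49 times xylitol dehydrogenase on Avicel, against 0.224, 0.435 and 0.300 times on no carbon and 0.262, 0.601 and 0.648 times on sucrose. Which of the pair was more abundant therefore changed with the carbon source, and the Avicel libraries, replicate 1 included, lay close together in this ratio. Xylose reductase was 19.9, 22.2 and 23.3 times xylulokinase on Avicel, against 0.331, 0.693 and 0.670 times on no carbon and 0.787, 2.03 and 1.87 times on sucrose. Relative to the xylulose reductase step it was 14.3, 13.3 and 13.7 times on Avicel, against 0.0524, 0.0305 and 0.0356 times on no carbon and 0.0792, 0.238 and 0.844 times on sucrose.

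Of the 10 pairwise ratios, 9 did not overlap between Avicel and no carbon, with the gene earlier in the order NCU08384, NCU00891, NCU11353, NCU00643, NCU09041 higher on Avicel relative to the other. The exception was the arabinitol step over the xylulose reductase step (difference 0.52 log2, exact permutation p = 0.70). Between Avicel and sucrose the same 9 did not overlap. Between no carbon and sucrose 6 did not overlap, each lower on no carbon, and 4 did. The 10 ratios come from 5 genes and are not independent, and no count over other gene pairs was made. With 3 libraries against 3 the exact two-sided permutation test cannot go below 0.10, which each of these ratios reached, and the adjusted p over 30 tests was 0.125. The mean log2 ratio of xylose reductase to xylitol dehydrogenase was 1.93 ± 0.12 on Avicel and -1.70 ± 0.48 on no carbon (SD, n = 3 each).

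**Figure D3:**
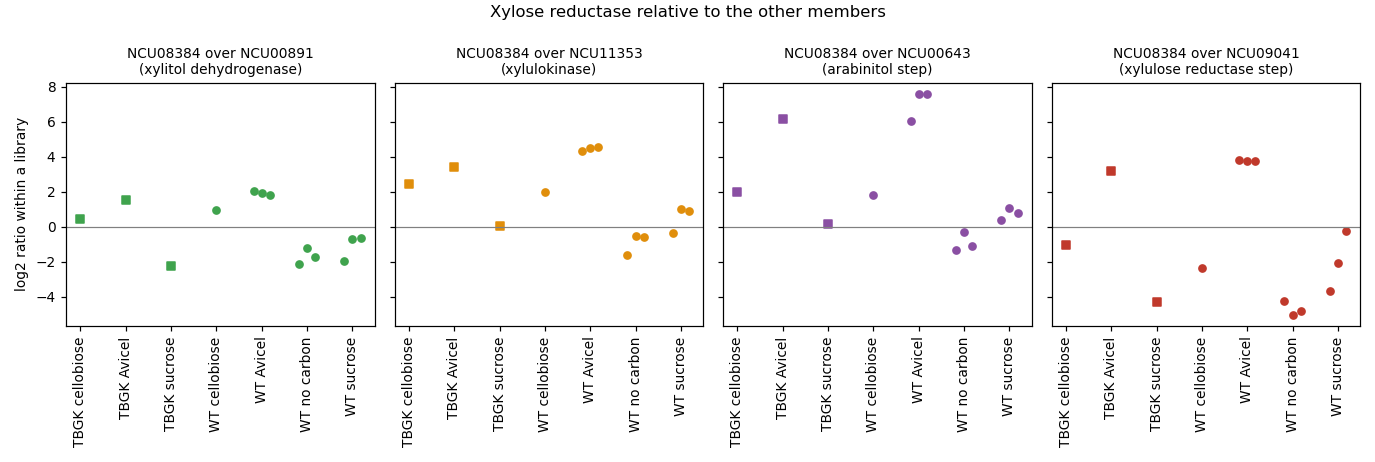
Log2 ratio of NCU08384 to each other gene within each library; circles are WT libraries, squares TBGK libraries, and the line at 0 marks equal FPKM. The 3 WT Avicel libraries lie between 1.80 and 2.03 over NCU00891 and between 3.73 and 3.84 over NCU09041, above every no carbon and sucrose library. Over NCU00643 they spread from 6.01 in replicate 1 to 7.59 in replicate 2.

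The make-up of the summed level shows the same shift. The 5 genes together had 11781, 51268 and 52318 FPKM in WT on Avicel, against 2152, 3890.2 and 3841 FPKM on no carbon and 1241, 654 and 312 FPKM on sucrose. Xylose reductase made up 71.0% to 72.5% of the sum on Avicel, against 2.56% to 3.28% on no carbon and 5.08% to 20.6% on sucrose. The xylulose reductase step held 5.06% to 5.42% on Avicel, against 63.4% to 84.7% on no carbon and 24.5% to 65.0% on sucrose. In every Avicel library of either strain the order from high to low was xylose reductase, xylitol dehydrogenase, xylulose reductase step, xylulokinase, arabinitol step. On no carbon the order opened with the xylulose reductase step and xylitol dehydrogenase and closed with xylose reductase in all 3 libraries.

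**Figure D4:**
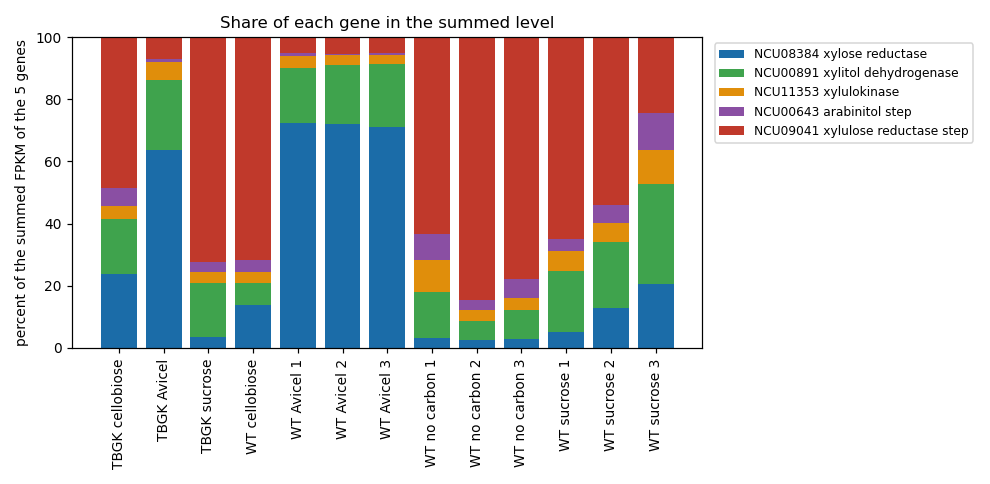
Percent of the summed FPKM of the 5 genes held by each gene, 1 bar per library. NCU08384 takes 63.7% in TBGK on Avicel and at least 71.0% in each WT Avicel library, while NCU09041 takes 48.5% to 84.7% on cellobiose in both strains, on no carbon and in TBGK on sucrose.

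Cellobiose was tested in the WT with 1 library, so these differences have no replicate check and no test of their own. Xylose reductase had 590.4 FPKM on cellobiose, below all Avicel libraries (mean 27565 ± 16477 FPKM, SD, n = 3) and above all no carbon and sucrose libraries. Xylitol dehydrogenase had 299 FPKM, xylulokinase 151, the arabinitol step 167 and the xylulose reductase step 3061, each inside its no carbon range. Against no carbon, xylose reductase alone was at least 2-fold higher (6.46-fold), as were 15.8% of all tested genes. Against sucrose 4 of 5 were at least 2-fold higher (21.2% of all genes), xylose reductase by 8.38-fold and the xylulose reductase step by 10.9-fold, and xylitol dehydrogenase stood just under the threshold at 1.98-fold. The difference of the xylulose reductase step was 3.45 log2, but 4.21 without sucrose replicate 1 and 2.52 without sucrose replicate 3, and without sucrose replicate 1 all 5 genes were past 2-fold. Against Avicel the 3 genes of the xylose route were at least 2-fold lower (19.5% of all genes), at -5.26, -4.32 and -2.78 log2, and the other 2 stayed within 2-fold. Without Avicel replicate 1 the 3 values were -5.97, -5.08 and -3.42 log2. The xylulose reductase step, at 0.89 log2, was also past 2-fold without Avicel replicate 2 or 3 (up to 1.27 log2), which made 4 genes.

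A fit over all 13 libraries, in which single libraries are assumed to vary like the triplicates, gave a test of these values. By limma the xylose reductase difference on cellobiose against no carbon had an adjusted p of 0.0290, the 1 member called where 26% of all genes were. Against sucrose 2 members were called, xylose reductase (limma adjusted p = 0.0378) and the arabinitol step (0.0156), as were 8.45% of all genes. Against Avicel the 3 genes of the xylose route were called lower, with limma adjusted p of 0.00200, 0.00984 and 0.0338, and 19.7% of all genes were called in either direction. On cellobiose in both strains the order of levels was xylulose reductase step, xylose reductase, xylitol dehydrogenase, arabinitol step, xylulokinase.

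In TBGK, which the study used to ask whether cellobiose acts like cellulose when it is not split, the xylose route was again high on Avicel. Xylose reductase had 1199.8 FPKM on cellobiose, 10154 on Avicel and 52.6 on sucrose. Xylitol dehydrogenase had 902, 3586 and 249 FPKM, and xylulokinase 219.9, 947 and 52.2 FPKM, in the same order of carbon sources. Each of the 3 genes was thus highest on Avicel and lowest on sucrose, with cellobiose between. The arabinitol step had 297, 140.01 and 46.4 FPKM and the xylulose reductase step 2464, 1110.3 and 1056 FPKM, both highest on cellobiose.

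On cellobiose against sucrose in TBGK all 5 genes were at least 2-fold higher (29.8% of all genes), from 22.4-fold for xylose reductase to 2.33-fold for the xylulose reductase step. The count was 4 under quantile normalization and with libraries scaled to the same total, where the xylulose reductase step was under 2-fold (down to 0.80 log2). On Avicel against sucrose 4 of 5 were at least 2-fold higher (27.8% of all genes), with xylose reductase at 189.5-fold, xylulokinase at 17.8-fold and the xylulose reductase step at 1.05-fold. Cellobiose against Avicel split the list: the 3 xylose route genes were at least 2-fold lower (8.23% of all genes), with xylose reductase at -3.08 log2, and the arabinitol and xylulose reductase steps were 2.12-fold and 2.22-fold higher (9.98%). Each of these differences is between 1 library and 1 other, so the limma fit over 13 libraries takes their error wholly from the WT triplicates of the other deposit, and its p-values hold only if the TBGK libraries vary as those do. On that assumption the adjusted p for cellobiose against sucrose was under 0.05 for xylose reductase (limma, 0.00720) and the arabinitol step (0.00360), as for 28.6% of all genes. For Avicel against sucrose it was so for 4 members (limma adjusted p 0.000818 to 0.0377) and 22.5% of all genes. For cellobiose against Avicel that fit called 0 of 5 members and 0.0343% of all genes (limma adjusted p 0.238 to 0.861), and 3 of 5 had an unadjusted p under 0.05.

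Set against the WT on cellobiose, TBGK on cellobiose had 3.02 times the xylitol dehydrogenase level and 2.03 times the xylose reductase level, the only members at least 2-fold higher (21.6% of all genes). Xylose reductase was under 2-fold after quantile normalization (0.78 log2) and with libraries scaled to the same total (0.82 log2). Xylulokinase stood at 1.45-fold, the arabinitol step at 1.77-fold and the xylulose reductase step at 0.805-fold. Against WT on Avicel, TBGK on cellobiose was lower by at least 2-fold for the 3 xylose route genes (10.2% of all genes), at -4.24, -2.73 and -2.24 log2, and within 2-fold for the others. Without Avicel replicate 1 the 3 values were -4.95, -3.49 and -2.88 log2. For each of these 3 genes the TBGK cellobiose library lay below all 3 WT Avicel libraries. By limma over 13 libraries xylose reductase was called (adjusted p = 0.0323), as were 2.49% of all genes.

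On Avicel, all 5 TBGK values lay above WT replicate 1 and below both WT replicates 2 and 3. They were inside the WT range only through replicate 1, and the share of all genes placed so was not counted. Xylose reductase, at 0.447-fold of the WT level on the log scale, was the only member past 2-fold (10.4% of all genes lower). Its difference was -1.16 log2, and -1.87 without Avicel replicate 1. The count was 3 without that replicate and 0 without replicate 2 or replicate 3. On sucrose the xylulose reductase step was 3.76-fold higher in TBGK than in WT (10.4% of all genes higher), and its 1056 FPKM lay above all 3 WT libraries. Without sucrose replicate 3 that difference was 0.98 log2, against 1.91 with all libraries, and no member was past 2-fold. Without sucrose replicate 1 it was 2.67 log2 and 2 members were past 2-fold. By limma over 13 libraries 0 of 5 members were called between TBGK and WT on cellobiose, Avicel or sucrose, and 0 had an unadjusted p under 0.05, where 11.5%, 0.685% and 0.445% of all genes were called.

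The strain effect on the response to Avicel was tested as an interaction over 13 libraries. The Avicel minus sucrose difference of xylose reductase was 7.57 in TBGK and 8.33 in WT, a difference of -0.76 (SE 1.03, 95% interval -3.11 to 1.59, limma adjusted p = 0.748). For xylitol dehydrogenase the differences were 3.84 in TBGK and 5.31 in WT (-1.46, SE 1.20, limma adjusted p = 0.593), and for the xylulose reductase step 0.07 in TBGK and 2.56 in WT (-2.48, SE 1.78, limma adjusted p = 0.549). In limma 0 of 5 members were called, and 0 had an unadjusted p under 0.05, where 0.0571% of all genes were called. Without both shallow libraries 3 were called, xylose reductase (-1.40, limma adjusted p = 0.0437), xylitol dehydrogenase (-2.57, adjusted p = 0.0111) and xylulokinase (-1.27, adjusted p = 0.0466), each with a smaller difference in TBGK. This rests on 1 TBGK library per carbon source. The share of all genes called without the shallow libraries was not counted, so these 3 calls cannot be set against it.

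Glycoside hydrolase genes and regulators outside the 5 members were taken from lists of identifiers that the reference gene table pairs with a fitting symbol. Of 5 glycoside hydrolase genes (gh10-1, gh10-2, gh11-1, gh11-2 and gh3-8), the first 4 of xylanase families, all rose on Avicel against no carbon and against sucrose, with medians of 7.86 and 12.08 log2, and 4 rose on no carbon against sucrose. The shares of all genes called higher in these comparisons were 3.9%, 33.9% and 40.2%, so calls against sucrose were common. Among the regulators xlr-1, clr-1, clr-2 and cre-1, the first 3 rose in each of the 3 comparisons and cre-1, the carbon catabolite repressor, was not called. The xylanase regulator xlr-1 (NCU06971) rose by 1.78 on Avicel against no carbon (SE 0.24, limma adjusted p = 0.00307). On no carbon against sucrose xlr-1 rose by 5.15 (SE 0.24, limma adjusted p = 1.26e-06). In that comparison xylulokinase and the arabinitol and xylulose reductase steps were called, and xylose reductase and xylitol dehydrogenase were not. Whether the level of xlr-1 bears on the members was not tested.

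Patterns over the 13 libraries were compared by Pearson's r of log2(FPKM + 1), as a description over points that share carbon sources, replicates and library scaling. Xylose reductase and xylitol dehydrogenase had r = 0.962, and xylitol dehydrogenase and xylulokinase r = 0.962, which placed each within the 7 genes most like the other among those tested. Xylose reductase and xylulokinase had r = 0.917. The arabinitol step had r = 0.550 with xylose reductase and 0.775 with the xylulose reductase step, and xylose reductase and the xylulose reductase step had r = 0.333.

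Genes nearest in pattern were named by rank, 3 per member. For xylose reductase these were NCU02455 (r = 0.972), NCU05068 (0.967) and NCU02485 (0.965), and for xylitol dehydrogenase NCU04401 (0.973), NCU07510 (0.967) and NCU02455 (0.964). Xylulokinase had NCU09705 (0.970), NCU01900 (0.968) and clr-1 (NCU07705, 0.968), which encodes a regulator of cellulose use. The arabinitol step had NCU11825 (0.966), NCU05870 (0.963) and NCU12086 (0.962), none of which was above 91.9 FPKM in any group mean. The xylulose reductase step had NCU06597 (0.931), NCU06506 (0.929) and NCU07120 (0.928), whose means were highest on WT no carbon, at 558, 159 and 878 FPKM.

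Each member had a single transcript in the deposited tables, of 1191 to 1967 bases, and none overlapped another gene. The 3 on supercont10.1 lie far apart, and no 2 members are neighbours. Of the 10 flanking genes, NCU00890 and NCU08383 were called on Avicel against no carbon, where 5.63% of all tested genes were called in either direction. NCU08383, which lies 2538 bases from xylose reductase, averaged 14.5 ± 7.15 FPKM on Avicel and 1.43 ± 0.217 FPKM on no carbon (SD, n = 3 each) and rose by 2.56 (SE 0.42, limma adjusted p = 0.00808), whereas NCU08385, 317 bases away on the other side, did not pass (-0.16, adjusted p = 0.798). On Avicel against sucrose NCU00890, NCU08383, NCU00642 and NCU09042 rose and NCU00644 and NCU00892 fell, where 58.3% of all tested genes were called. On no carbon against sucrose these were called in the same directions, and NCU09040 and NCU11352 rose too, where 64.3% of all genes were called.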

How the data were processed

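TopHat and, at version 0.9.3, Cufflinks are named in the submitters' processing notes for the FPKM values the authors deposited. Neither genome build nor annotation is given in the sources used here. Per the file headers, values are per transcript in the triplicates (9907 rows) and per gene in the single libraries (9733 rows); transcript FPKM was summed per gene here. Depth was the deposited coverage signal (mean reads per base) times effective length, summed. Whole counts were not recovered, so no counting interval is given.

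The 9 WT triplicate libraries were fitted with limma 3.58.1 (intensity trend, R 4.3.3) on log2(FPKM + 1), for 8759 genes with FPKM of at least 1 in at least 3 libraries, with Benjamini-Hochberg adjustment over all of them. An adjusted p under 0.05 was a call, and "rose" is used only for calls. The SD is over FPKM and the SE is limma's. Fold changes are on the log2(FPKM + 1) scale, which understates low genes. In data simulated for Avicel against no carbon over 8759 genes, limma called 75 of 100 genes changed by 2 log2 and 96 of 100 changed by 5 log2, with 10 false calls among 181. The noise was drawn independently for each gene and library. Deviations that many genes of a library share were thus not simulated, and these rates may not hold for the data. Where 1 side was a single library, members were counted that differed by 2-fold or more, and the limma fit over 13 libraries was run as an alternative. Ratios within a library used exact permutation tests (scipy 1.17.1).

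All 5 members are named, and for each the 3 genes with the highest Pearson r. Lists kept only identifiers with a fitting symbol in the RefSeq NC12 gene table (9016 of 9733 matched, 1093 with a symbol), so a planned pentose phosphate list, with a symbol for 1 of its 5 identifiers, is not used, nor are 3 of 8 planned cell wall genes. Members, lists and tests were chosen with earlier results of these data known. Protein and promoter sequences were not used here. Python 3.11.15 was used for tables.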

Additional observations from a re-analysis of the deposited data

How the results depend on the processing

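Alternatives were other pseudocounts (0.1 and 10), filters (none, or FPKM of at least 10), quantile, median-of-ratios and same-total scaling, limma without trend, the replicate block, the 13-library fit, and leaving out libraries. The calls of xylose reductase and xylitol dehydrogenase on Avicel, in both comparisons, held under all 20. The member counts were 2 to 3 on Avicel against no carbon, 4 to 5 on Avicel against sucrose and 2 to 4 on no carbon against sucrose. The count of all genes called on Avicel against no carbon was 493, 908 without both shallow libraries and 276 to 627 with 1 library left out. Members called in the strain interaction numbered 0, but 3 without both shallow libraries, where the share of all genes called was not counted. Members at least 2-fold apart numbered 5 in TBGK on cellobiose against sucrose (4 under quantile normalization and at the same total), 5 in TBGK on cellobiose against Avicel (3 under quantile normalization), 2 in TBGK against WT on cellobiose (1 under quantile normalization, 1 at the same total), 1 in TBGK against WT on Avicel (2 and 2 under those scalings, 0 to 3 with a library left out), and 1 in TBGK against WT on sucrose (2 at the same total, 0 to 2 with a library left out); the cause was not tested. Whether replicate numbers mark paired libraries was left undecided. Of 9 same-number pairs 4 had a correlation over 0.1 (range -0.31 to 0.45), and 4 of 9 libraries correlated best with their own number. The same-number pairs of Avicel and sucrose had 0.18, 0.12 and 0.18, and pairs of unlike numbers reached 0.44. With the replicate block 374 genes were called on Avicel against no carbon, and 2, 4 and 3 members in the 3 comparisons. Ratios kept their sign and overlap under both pseudocounts.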
